A study of Mus musculus with 2 samples.

Results

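The 100 kb upstream of Fos was examined at positions 1 kb apart in 2 libraries of circular chromosome conformation capture sequencing (4C-seq), both with a viewpoint at the Fos promoter. Positions were taken by coordinate alone on mouse chromosome 12 (mm9), from 86714834 to 86813834 in the cortical table and from 86714199 to 86813199 in the hippocampus table. This gave 100 of the 2001 positions of the cortical neuron table and 100 of the 201 positions of the hippocampus table, 200 of 2202 in all. Fos lies on the plus strand in RefSeq, so lower coordinates are upstream, and distances below are counted from the middle row of each table (86814834 in cortical neurons, 86814199 in hippocampus). The cortical neurons were primary cells of E15.5 embryos, grown in culture for 10 to 11 days. The hippocampus was tissue dissected from mice aged 3 months. No genetic change or stimulus is named in the labels of either library, both were fixed with 1% formaldehyde, and the study set out to find which putative enhancers the promoter touches. Each tissue has 1 library, so no difference has a replicate check, no p-value is given and the read depth is unknown.

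Fos belongs to the immediate-early genes, whose transcripts appear in neurons shortly after activity, and its protein pairs with Jun proteins to form the transcription factor AP-1. Enhancers can act on a distant promoter when the chromatin between them folds so that they meet, and several enhancers that respond to neuronal activity have been described upstream of Fos. In 4C-seq, fixed chromatin is digested with restriction enzymes, ends that lay close together are ligated, and whatever was ligated to the viewpoint is sequenced, so that more signal at a site means more frequent meetings with the promoter. The mm9 positions of the described enhancers were not used here, and signal peaks are therefore given by coordinate without an enhancer name. In RefSeq gene order, the upstream neighbours of Fos are the non-coding or pseudogene loci Gm38543, Gm46370, Gm40477, Gm29709 and Gm51954, followed by Tmed10, which sorts cargo between endoplasmic reticulum and Golgi and is the first protein-coding gene on that side. Their mm9 positions were not used either.

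Part of the Fos promoter is shown because the viewpoint of both libraries lies at this promoter. Where the viewpoint lies relative to the printed bases is not known. The middle rows from which distances are counted lie 635 bases apart in the 2 libraries. The labels name the first enzyme as HindII and the second as DpnII. The RefSeq sequence of the 250 bases before the Fos start (GRCm38.p6, chr12:85473640-85473889, plus strand) is printed with matches to 4 searched motifs in capitals. In the order of the sequence these are a DpnII site, a HindII site, the core of a cyclic AMP response element and a TATA box.
Fos promoter: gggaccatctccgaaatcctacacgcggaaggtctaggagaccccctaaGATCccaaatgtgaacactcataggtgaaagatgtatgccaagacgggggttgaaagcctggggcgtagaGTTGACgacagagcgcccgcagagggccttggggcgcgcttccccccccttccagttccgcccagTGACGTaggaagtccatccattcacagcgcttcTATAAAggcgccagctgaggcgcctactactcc
DpnII (GATC) matched 201 bases before the start, and 41.9% of 32851 RefSeq promoters of this length hold a match. HindII was searched as GTTGAC and its reverse complement GTCAAC, and as the palindromes GTCGAC and GTTAAC. It matched closer to the start, as GTTGAC, and 9.14% of promoters hold a match. The response element core (TGACGT, searched on both strands) matched at 66 bases, against 6.47%, and the TATA box (TATAAA, both strands) at 33 bases, against 12.4%. HindIII (AAGCTT), an enzyme with a similar name, had no match in this window, and 6.22% of promoters have one. No 2 of the matches overlap. A match is a description of these letters, and which fragment end the primers used is not given in the sources used here.

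At every position the tables list signal for 48 window sizes, read as 2 to 49 kb, each with an upper and a lower bound. The authors' signal is scaled so that the highest 2 kb window of a library equals 1. In cortical neurons that window lies inside the upstream 100 kb, and in hippocampus it lies 14 kb on the other side of Fos. Levels are therefore relative within a library, and shapes are compared through the ratio to the library's own upstream median. In 2 kb windows 91 of 100 cortical positions and 92 of 99 hippocampus positions were above 0. In 10 kb windows all 100 cortical and all 95 listed hippocampus positions were above 0. The hippocampus table starts at the first upstream row, so its 5 outermost rows have no 10 kb value and 24 rows have no 49 kb value. At the borders, the cortical 10 kb signal was 0.120 in the outermost row and 0.0973 in the row beyond it. In the innermost row it was 0.110, and at the midpoint 0.107. For the hippocampus the innermost row had 0.322 and the midpoint 0.281.

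At the narrowest scale the upstream signal varied widely between 2 kb windows. The cortical neurons ranged from 0.0211 to 1 among windows above 0, with a median of 0.130. The hippocampus ranged from 0.00960 to 0.866, with a median of 0.263. The highest cortical window lay 16 kb upstream, from 86797835 to 86799834, at 7.67 times the upstream median. The hippocampus window 16 kb upstream, from 86797200 to 86799199, reached 0.832, or 3.17 times its median, and ranked as the second among its upstream windows. Both libraries thus had one of their tallest upstream windows at the same place. The next hippocampus position, 365 bases above the cortical one, was at 0.226, so the high signal was narrow. The cortical window was also wide in its values, with bounds of 0.0465 and 19.4, and its signal was 0.187 in the 4 kb window at the same position.

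**Figure D1:**
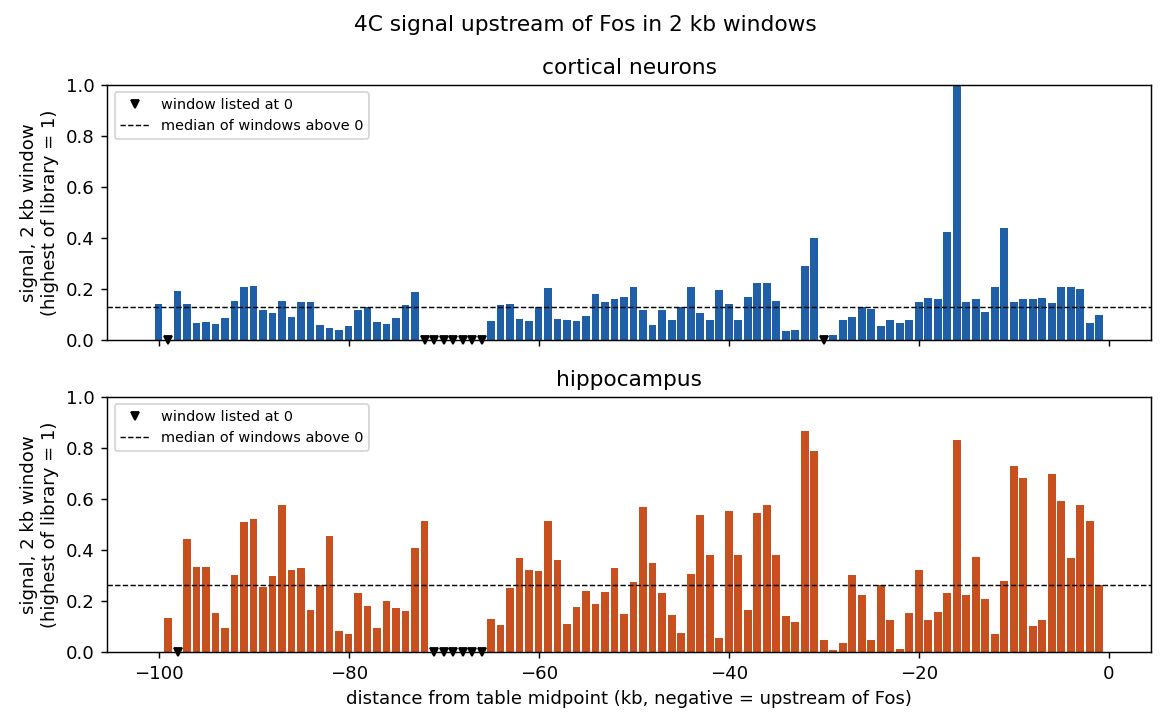
Signal in 2 kb windows (vertical axis, highest window of the library set to 1) against distance from the table midpoint in kb, with negative values upstream, for the single cortical neuron and hippocampus libraries. Bars are single windows, triangles mark windows listed at 0 and the dashed line is the median of windows above 0. Tall windows appear 16 and 31 kb upstream in both libraries, and the gap at 0 between 71 and 66 kb is shared.

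The other tall windows fell into a cluster about 30 to 38 kb upstream and a cluster within 12 kb. The highest hippocampus window lay 32 kb upstream, from 86781200 to 86783199, with a signal of 0.866 (bounds 0.0570 to 12.1). The third highest cortical window lay beside it, 31 kb upstream from 86782835 to 86784834, with 0.399 (bounds 0.0402 to 3.56). Closer to Fos, the second highest cortical window was at 11 kb (0.441, bounds 0.0466 to 3.81) and the third hippocampus window at 10 kb (0.729, bounds 0.0344 to 13.5). The fourth hippocampus window, at 6 kb, had 0.700. The nearest cortical windows on both sides of it had 0.165 and 0.147, or 1.26 and 1.13 times the cortical median, against 2.67 times for the hippocampus. The last places among the top 5 were less distinct. In cortical neurons the windows at 36 and 90 kb had 0.222 and 0.211, next to 0.209 for the window after them. In hippocampus the last of the 5 values, 0.575, was listed at 3 places, 87, 36 and 3 kb upstream.

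In the cluster from 38 to 31 kb, the part from 37 kb inwards had a similar inner structure in both tissues. In the 4 windows from 38 to 35 kb upstream the cortical signal was 0.152 to 0.222 and the hippocampus signal 0.165 to 0.575. In the 2 windows at 34 and 33 kb it was 0.0365 and 0.0403 in cortical neurons and 0.143 and 0.118 in hippocampus. In the 2 windows at 32 and 31 kb it was 0.290 and 0.399 in cortical neurons and 0.866 and 0.790 in hippocampus. From 37 kb inwards the contact block thus consisted of an outer shoulder, a low gap and an inner peak. Its outer edge differed between the tissues. The windows at 40, 39 and 38 kb had 0.143, 0.0792 and 0.171 in cortical neurons and 0.554, 0.382 and 0.165 in hippocampus. Beside the inner peak the signal broke off. The windows at 30, 29 and 28 kb were at 0, 0.0211 and 0.0786 in cortical neurons and at 0.0472, 0.00960 and 0.0366 in hippocampus. The 0 may stand for a window without data (see the next paragraph), and the cortical 3 kb window at 30 kb had 0.0228. The window at 29 kb was the lowest above 0 of the whole upstream side in both libraries. From the top of the block to this low point is 2 to 3 kb in both tables.

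A stretch listed at 0 was shared as well. In cortical neurons 7 neighbouring 2 kb windows were listed at 0, from 86741835 to 86749834, and in hippocampus 6, from 86742200 to 86749199. The whole cortical table has 2 runs of 5 or more such windows. At the outer end of this stretch the 5 kb window had the same signal as the single 2 kb window before it, 0.189 in cortical neurons and 0.516 in hippocampus. The windows at 0 thus did not lower these 5 kb values, and a 0 may stand for a window without data. The hippocampus value of 0.516 made this edge the highest 5 kb window upstream, on the strength of a single 2 kb window. The other windows at 0 stood alone, at 99 and 30 kb in cortical neurons and at 98 kb in hippocampus.

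In 10 kb windows the upstream side resolved into alternating crests and dips. It is described through the 10 windows that do not overlap, from the outermost to the innermost. The window centred 95 kb upstream had a signal of 0.119 in cortical neurons and 0.251 in hippocampus, 1.01 times the upstream median in both. At 85 kb the values were 0.104 and 0.262, which is 0.883 and 1.05 times the median. The outermost part of the region was thus close to each library's middle level.

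Further in, from 80 to 58 kb, lay a broad low zone. The window at 75 kb had 0.0964 in cortical neurons and 0.207 in hippocampus, 0.816 and 0.832 times the median. At 65 kb the values were 0.0851 and 0.214, or 0.720 and 0.861 times the median. Both windows include part of the stretch listed at 0, which did not lower the 5 kb values at its outer end. Over the 23 positions from 80 to 58 kb the cortical signal ranged from 0.0789 to 0.112 and the hippocampus signal from 0.156 to 0.242. None of these positions exceeded the upstream median of its library (0.118 and 0.249).

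From 57 to 31 kb the median signal was 0.151 in cortical neurons and 0.285 in hippocampus, with cortical signals of 0.0882 to 0.174 and hippocampus signals of 0.215 to 0.374 over 27 positions. In both libraries this range overlaps that of the low zone. The window centred at 55 kb had 0.151 in cortical neurons, 1.28 times the median, and 0.232 in hippocampus, 0.932 times the median. At 45 kb the values were 0.129 and 0.265, or 1.09 and 1.06 times the median. At 35 kb they were 0.162 (bounds 0.0169 to 1.24) and 0.374 (bounds 0.0390 to 3.23), or 1.37 times the cortical median and 0.59 log2 above the hippocampus median. That window ranked first of the 10 in hippocampus and second in cortical neurons.

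The innermost windows held the lowest of the 10 in both libraries and the highest in cortical neurons. At 25 kb the signal was 0.0612 in cortical neurons and 0.0990 in hippocampus, only 0.518 and 0.397 times the median and the lowest of the 10 in both. At 15 kb it was 0.195 in cortical neurons, the highest of the 10 at 1.65 times the median. The hippocampus had 0.247 there, 0.990 times its median and the sixth of the 10. At 5 kb the values were 0.154 and 0.366, or 1.31 and 1.47 times the median. From the lowest to the highest of these windows the signal spanned 3.18-fold in cortical neurons and 3.78-fold in hippocampus. Values inside a window varied more than that. The median half-width of the authors' bounds upstream was 2.50 log2 units in cortical neurons and 3.04 in hippocampus.

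**Figure D2:**
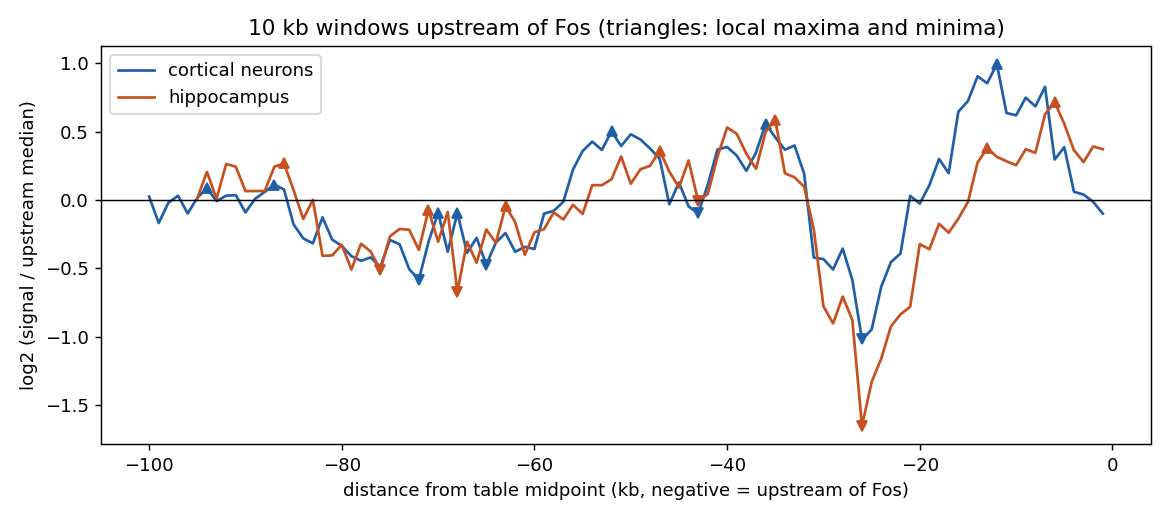
Signal in 10 kb windows as log2 of its ratio to the upstream median of the library (vertical axis), against distance from the table midpoint in kb, with negative values upstream. Lines are the single cortical neuron and hippocampus libraries, and triangles are local maxima and minima. Both lines have a crest at 35 to 36 kb and their lowest point at 26 kb, with log2 values of -1.02 and -1.65.

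Local maxima and minima, each the highest or lowest 10 kb window among the positions within 5 kb, placed these features more exactly. The dip was at 26 kb in both tables. It spanned 86783835 to 86793834 with a signal of 0.0582 in cortical neurons (bounds 0.00935 to 0.266). In hippocampus it spanned 86783200 to 86793199 with 0.0792 (bounds 0.00490 to 0.679). Among all 1991 cortical windows of this size, reaching to 1000 kb on both sides, 16 were as low, or 0.804%. The crest beyond it was at 36 kb in cortical neurons (0.174) and 35 kb in hippocampus (0.374). As high a value as the cortical crest was found in 61 of the 1991 windows, or 3.06%. These ranks take no account of distance from Fos. The crest over the dip amounted to 2.98-fold in cortical neurons and 4.73-fold in hippocampus, with the extreme value within 2 kb of each place.

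On the side towards Fos the maxima differed in place. The cortical maximum was at 12 kb, from 86797835 to 86807834, with 0.235 (bounds 0.0165 to 2.61) or 1.99 times the median. No other of the 1991 cortical windows was as high, again without regard to distance from Fos. This maximum and the tallest cortical 2 kb window (signal 1) begin at the same base, 86797835. At 11 kb, where only part of that tall window is still covered, the 10 kb signal was 0.184. At 7 kb, clear of it, the 10 kb signal was 0.210. The hippocampus had a maximum at 13 kb, with 0.324 or 1.30 times its median, and a higher one at 6 kb, from 86803200 to 86813199, with 0.409 or 1.64 times its median. The remaining cortical maxima were at 52 kb (1.41 times the median), 87 kb (1.08) and 94 kb (1.06), and at 70 and 68 kb with the same value (0.937). The last 2 windows both contain the whole cortical stretch listed at 0. The remaining hippocampus maxima were at 47 kb (1.28), 86 kb (0.300 in signal, the highest beyond 80 kb), 63 kb (0.970) and 71 kb (0.951). Further minima lay at 43 kb in both libraries, at 0.935 and 0.993 times the median. The others were at 65 kb (0.720) and 72 kb (0.668) in cortical neurons and at 68 kb (0.627) and 76 kb (0.701) in hippocampus.

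Widening the window flattened the profile and moved the strongest of the windows lying wholly upstream. The ratio of the highest to the lowest upstream value was 47.3 in 2 kb windows of the cortical neurons and 4.04, 2.17 and 1.44 in 10, 20 and 40 kb windows. In hippocampus the same ratios were 90.3, 5.17, 2.15 and 1.35. Among windows lying wholly upstream, the highest cortical one stayed between 14 and 10 kb for all 17 sizes from 7 to 23 kb. It then moved to 46 to 43 kb for sizes of 24 to 30 kb and to 23 to 19 kb for sizes of 31 to 42 kb. At 43 to 49 kb it was found 32 to 30 kb upstream. In hippocampus it lay within 11 kb for sizes of 9 to 17 kb. It moved to 47 to 42 kb for sizes of 18 to 34 kb and to 55 to 52 kb for sizes of 35 to 49 kb. At all sizes of 18 kb or more the highest wholly upstream hippocampus window was thus centred more than 40 kb from Fos. Part of these moves follows from the restriction, because wider windows near Fos reach across the midpoint and drop out. At 18 kb in hippocampus the highest value of any upstream row was 0.346, against 0.335 for windows wholly upstream. At 24 kb in cortical neurons these values were 0.159 and 0.158.

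The lowest window stayed near the dip over the narrower sizes. The lowest window lay 30 to 24 kb upstream for the 13 sizes from 2 to 14 kb in cortical neurons, and 29 to 24 kb upstream for the 17 sizes from 2 to 18 kb in hippocampus. The dip was not low throughout. In 2 kb windows the lowest point was at 29 kb, and the window at 26 kb had 1.00 times the cortical and 0.856 times the hippocampus median. From 30 to 21 kb the highest 2 kb window had 1.00 times the cortical and 1.16 times the hippocampus median. For sizes of 18 to 35 kb the lowest cortical window lay at 74 to 68 kb, and for sizes of 25 to 37 kb the lowest hippocampus window lay at 72 to 68 kb. These wide windows reach over the stretch listed at 0, which did not lower the 5 kb values at its outer end. In 20 kb windows the crest near 35 kb stood 0.32 log2 over the dip in cortical neurons and 0.68 in hippocampus. In 40 kb windows these steps were 0.01 and 0.09, so neither feature can be seen at that scale.

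**Figure D3:**
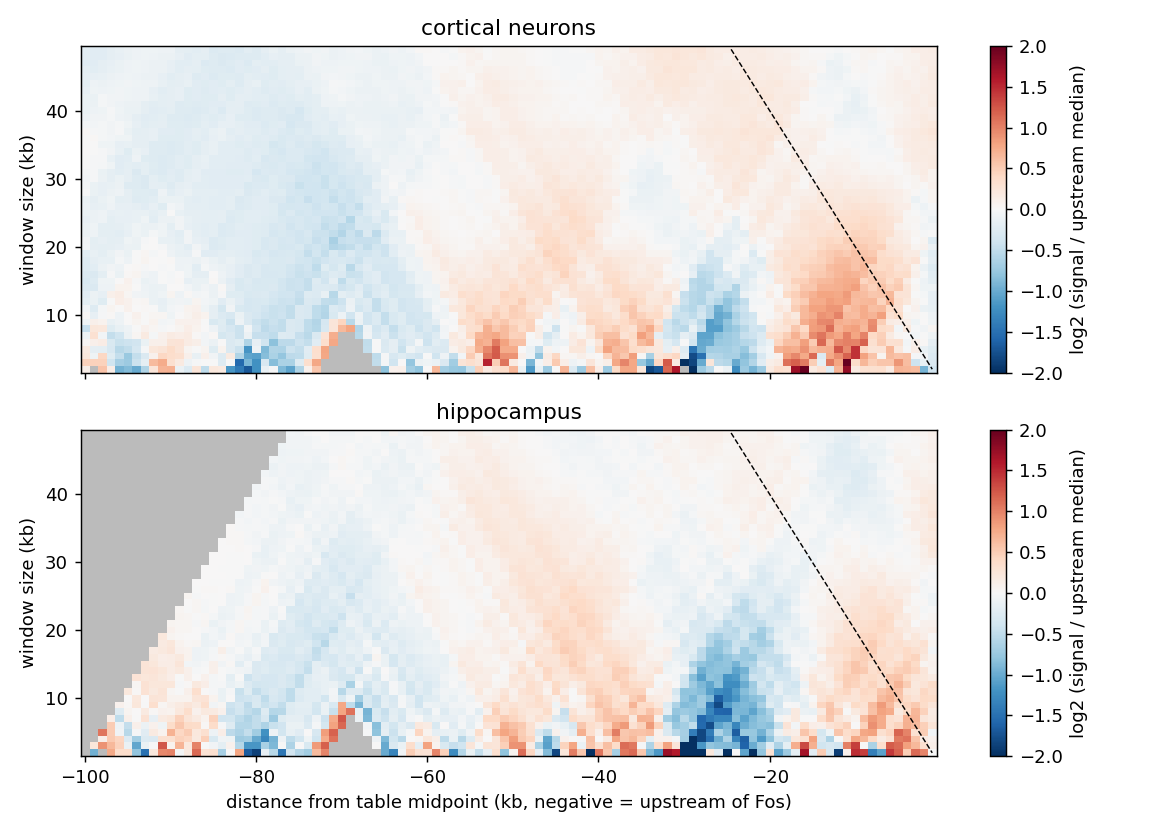
Colour gives log2 of signal over the upstream median at the same window size, for window sizes of 2 to 49 kb (vertical axis) and distance from the table midpoint in kb (horizontal axis, negative upstream), in the 2 libraries. Grey cells are at 0 or have no value, and windows to the right of the dashed line reach across the midpoint. The blue wedge at 30 to 20 kb is seen in both libraries up to windows of about 20 kb, and the red wedge nearer to Fos is deeper in colour in the cortical neurons.

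Contact was higher in the part of the upstream side nearer to Fos, by a small factor. In cortical neurons the median 10 kb signal was 0.146 at the 46 positions from 5 to 50 kb and 0.104 at the 45 positions from 51 to 95 kb, a ratio of 1.40 or 0.48 on the log2 scale. In hippocampus the medians were 0.282 and 0.226, a difference of 0.32 on the log2 scale. Over the 10 windows that do not overlap, 5 in each part, the differences were 0.57 in cortical neurons and 0.19 in hippocampus. The SD of those 10 single windows was 0.50 and 0.53 log2. In hippocampus the difference was -0.01 in 49 kb windows, where only 26 of the far positions have a value.

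The upstream side as a whole was level with the other side of Fos, and the order of its crests and dips was not. From 5 to 95 kb the upstream median was 0.942 times that of the other side in cortical neurons (0.119 against 0.126, 91 positions each) and 0.972 times in hippocampus (0.247 against 0.254). In bands chosen after the profile had been seen, the sides alternated. From 1 to 20 kb the upstream side was higher, 1.42-fold in cortical neurons and 1.27-fold in hippocampus. In this band, windows centred closer than 5 kb to the midpoint reach across it, so there the sides share bases. From 21 to 30 kb it was lower, at 0.448 and 0.373 times the other side. From 31 to 57 kb it was higher again, 1.35-fold and 1.34-fold. From 58 to 80 kb it was lower, at 0.759 and 0.856 times, and from 81 to 95 kb at 0.749 and 0.809 times.

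The band from 21 to 30 kb had the widest separation of these 5. Its 10 upstream positions ranged from 0.0582 to 0.121 in cortical neurons, and the 10 positions at equal distance on the other side from 0.132 to 0.233. In hippocampus the upstream positions ranged from 0.0792 to 0.153 and those on the other side from 0.296 to 0.486. The sides did not overlap in either library. The other side was itself high in this band. Its median was 0.189 in cortical neurons and 0.360 in hippocampus, against 0.126 and 0.254 from 5 to 95 kb. Neighbouring positions share most of their window, so these are not 10 separate measurements. In the remaining bands the ranges of the sides overlapped in both libraries.

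**Figure D4:**
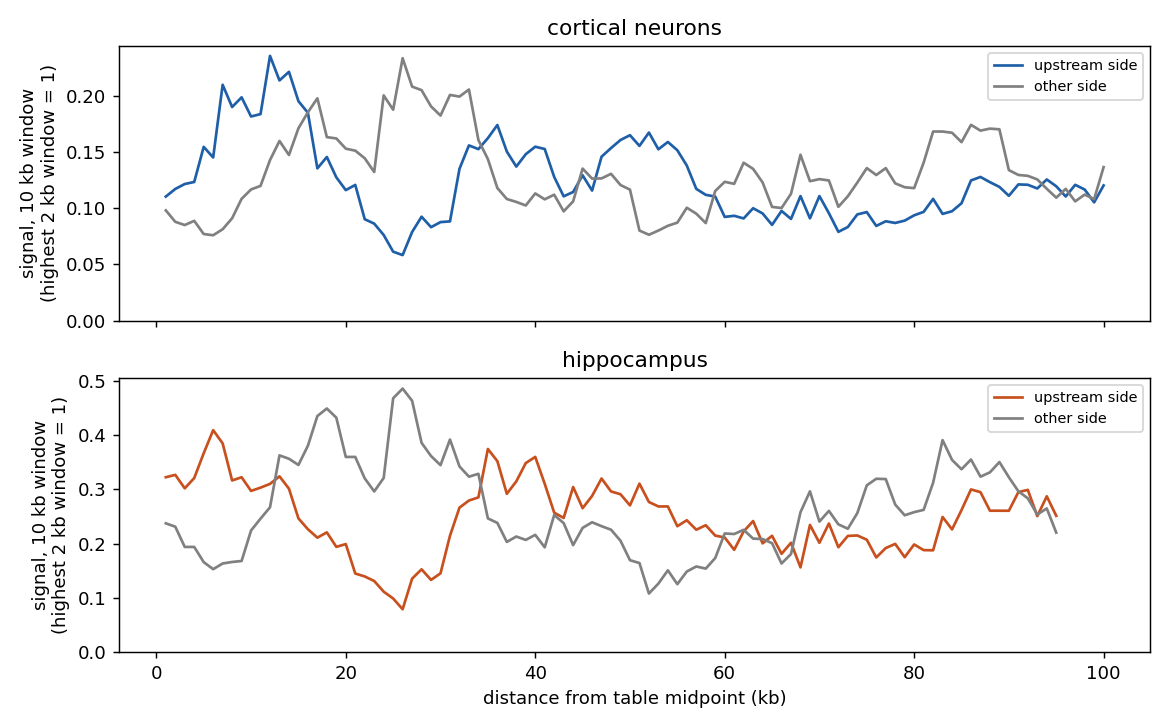
Signal in 10 kb windows (vertical axis, highest 2 kb window of the library set to 1) against distance from the table midpoint in kb, for the upstream side (coloured) and the other side (grey) of each single library. From 21 to 30 kb the upstream line lies below the grey line in both libraries, and from 36 to 41 kb it lies above it.

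The upstream profiles of the tissues followed each other. For this comparison the cortical log2 signal was interpolated to the hippocampus positions, because the grids lie 365 and 635 bases apart. Over 95 upstream positions of 10 kb the Pearson correlation of log2 signals was 0.805 and the Spearman correlation 0.827. On the other side, over 95 positions, they were 0.913 and 0.914. These are descriptions, since neighbouring positions share their windows. Both libraries also share the restriction sites and have a viewpoint at the Fos promoter. In 5 kb windows the upstream Pearson correlation was 0.719 (93 positions), in 20 kb windows 0.736 (90) and in 40 kb windows 0.666 (80). In 2 kb windows, with the nearest cortical position, it was 0.400 over 90 positions above 0. The likeness was therefore highest at 10 kb among the sizes compared.

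After each library's overall level was removed, few upstream positions of 10 kb differed between the tissues. As deposited, hippocampus signal was a median of 2.06-fold that of cortical neurons over all 191 shared positions, a factor set in part by the library maxima that the authors scaled to. With that median removed, 2 of 95 upstream positions were relatively higher in cortical neurons by 1.5-fold or more, at 26 and 15 kb, against 2 of all 191 positions (1.05%). None was relatively higher in hippocampus by as much, against 0% of all positions. In 5 kb windows 11 of 93 upstream positions were relatively higher in cortical neurons, against 8.90% of 191. In that size 6 of 93 were relatively higher in hippocampus, against 4.71%. In 20 kb windows 1 of 90 passed, at 21 kb and towards cortical neurons, against 0.552% of all shared positions, and in 40 kb windows none of 80 did.

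The position at 26 kb was the bottom of the dip. There the cortical signal was 0.0705 and the hippocampus signal 0.0792, a centred log2 difference of 0.87, which says that the dip was relatively deeper in hippocampus. The value depended on how the steep flank was read. It was 1.01 with the nearest cortical position, 0.57 with the farther one and 0.35 after quantile normalization. In 20 kb windows it was 0.29, and in 5 kb windows it turned to -0.09. The position at 15 kb had 0.188 in cortical neurons and 0.247 in hippocampus, a centred difference of 0.65. There the other settings gave 0.61, 0.68, 0.60, 0.28 and 0.43 in the same order.

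Smaller differences in one direction ran along the inner part of the region. All 28 positions from 34 to 7 kb were relatively higher in cortical neurons, by 0.07 to 0.87 log2 with a median of 0.34. Over the whole upstream side 47 of 95 positions were. Neighbouring windows overlap, so these are not 28 separate measurements. When each hippocampus position was paired with the farther cortical one, the longest run had 24 positions, from 30 to 7 kb. After quantile normalization it had 16, from 23 to 8 kb, and in 20 kb windows it had 24, from 29 to 6 kb. In 5 kb windows it had 17, from 25 to 9 kb. There 24 of the 27 positions from 34 to 8 kb were relatively higher in cortical neurons, so the direction was not kept throughout. Next to Fos the sign turned. At 1 kb the signal was 0.114 in cortical neurons and 0.322 in hippocampus, the lowest centred difference of the region at -0.45. That window reaches across the midpoint, and the difference there was -0.15 in 5 kb and -0.12 in 20 kb windows. At 35 kb, on the shared crest, the difference was -0.10.

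**Figure D5:**
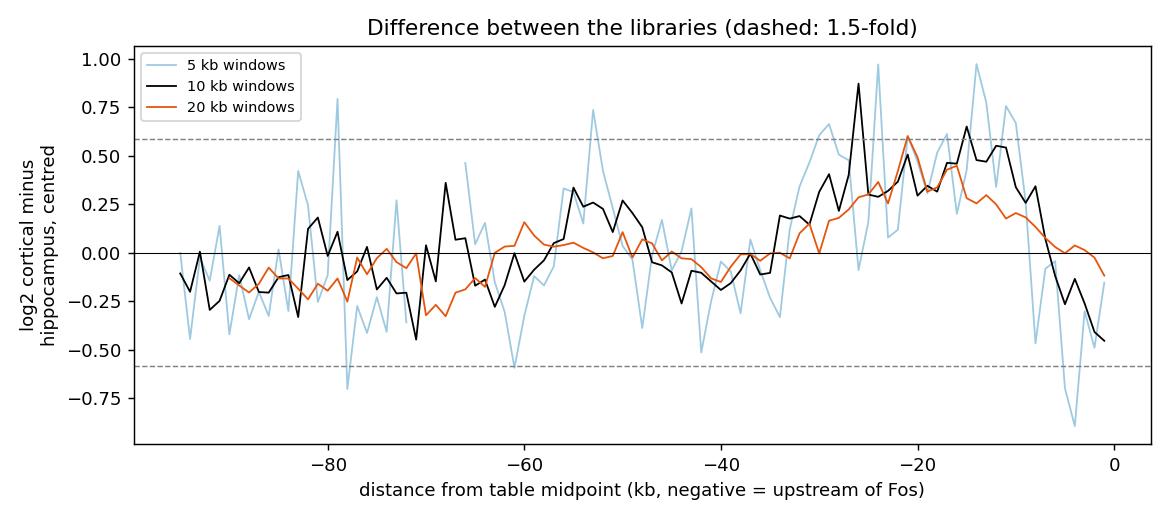
Centred log2 difference of cortical neurons minus hippocampus (vertical axis) against distance from the table midpoint in kb, negative upstream, in 5, 10 and 20 kb windows of the 2 single libraries. Dashed lines mark 1.5-fold. The 10 kb line is above 0 at all positions from 34 to 7 kb and passes the upper dashed line at 26 and 15 kb.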

How the data were processed

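The 4C-seq data comprise 1 cortical neuron and 1 hippocampus library with a viewpoint at the Fos promoter. Samples were fixed with 1% formaldehyde, digested, ligated for 4 hours at 16 °C and amplified in about 16 reactions, per the labels' protocols. The authors deposited signal tables in mm9, per the submitters' processing notes, with 3 values for each window size. Aligner, counting step and program: not given in the sources used here. As deposited, the signal is scaled within a library to a maximum of 1 among its 2 kb windows, and the upper bound is on the same scale. The deposited lower bound was treated as a score on the same scale, since some values fall just below 0. The central signal is the geometric mean of its bounds after a constant is added (0.00569 and 0.00559), so the bounds were taken to describe how much values vary inside a window. Window sizes, window limits and the midpoint are inferred from the shape of the tables. Read depth is unknown.

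Computed here with Python 3.11.15 and numpy 2.4.6 were log2 signals without a pseudocount, windows at 0 left out, and ratios to the upstream median. Differences between tissues were centred on the median of all shared positions, and positions past 1.5-fold were counted. The code was tested on simulated data. The places named are local maxima and minima of the 10 kb signal, the 5 highest 2 kb windows at least 3 kb apart, every 2 kb window at 0 and the 10 windows of 10 kb that do not overlap. Single positions of the difference, the inner stretches of 2 kb windows and the distance bands were chosen after their values were seen. The region and the comparisons were chosen with earlier results of these data known. Alternatives changed the window, constant, pairing of positions, centring and fold.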

Additional observations from a re-analysis of the deposited data

How the results depend on the processing

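Every alternative is a setting of the same 2 libraries, so none stands in for a replicate. Of 76 alternative values, 55 stayed within the yardstick (the SD of the 10 windows that do not overlap, 0.1 for a correlation, 1.5-fold for a count), none reversed beyond it, and 21 moved. The contrasts of near against far positions and of the sides stayed within it under every alternative run. This says little, because the yardstick (0.50 and 0.53 log2) is larger than each of these contrasts in the main setting. Leaving out the highest 2 kb window could not move the hippocampus contrast, since that window lies on the other side of Fos. In hippocampus the contrast of near against far fell from 0.32 to 0.08 in 40 kb and -0.01 in 49 kb windows, still within the yardstick. The set of positions changed as well, because outer rows have no value there. The far part held 45 positions in the main setting, 30 in 40 kb and 26 in 49 kb windows. The strongest cortical window stood 0.99 log2 over the upstream median, 0.20 in 40 kb and 0.25 in 49 kb windows. The strongest hippocampus window went from 0.72 to 0.11 in 49 kb windows. For the strongest window the yardstick concerns height alone. Its place in hippocampus went from 6 kb upstream to 71, 44 and 54 kb in 5, 20 and 40 kb windows, which counted as unmoved. The Pearson correlation of the tissues fell from 0.805 to 0.666 in 40 kb and 0.602 in 49 kb windows. The Spearman correlation fell from 0.827 to 0.726 and 0.631 there, and to 0.709 over the 10 windows that do not overlap. The 2 positions relatively higher in cortical neurons became 11 in 5 kb, 1 in 20 kb, and 0 in 40 and 49 kb windows. They became 4 with the farther cortical position, 1 after quantile normalization, 0 without centring, 17 at the lower fold tried and 0 at 2-fold. The 0 positions relatively higher in hippocampus became 6 in 5 kb windows, 1 after quantile normalization, 86 without centring and 4 at the lower fold. No share over all shared positions is given for 49 kb windows or for a changed pairing, centring or fold. Those counts therefore cannot be set against a background. The cause of these changes was not tested, except that another fold or no centring moves the count by construction. No paired analysis was possible because each tissue has 1 library.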

Other observations

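Many 2 kb windows that do not overlap carried exactly the same signal and bounds, to 9 decimals. Upstream of Fos this held for 22 of 91 cortical windows above 0, which shared 10 values, and for 21 of 92 hippocampus windows, which shared 9. For example, the cortical signal of 0.130 with bounds 0.0593 and 0.279 was listed at 60, 45 and 26 kb upstream. The hippocampus signal of 0.516 with bounds 0.240 and 1.10 was listed at 72, 59 and 2 kb. On the other side of Fos the shares were alike, 21 of 98 and 23 of 98 windows. Of the 1935 cortical windows above 0 at any distance, 1489 shared their values with another place, and 720 distinct values were listed. Upstream of Fos the recurring values ran from 0.0786 to 0.208 in cortical neurons and from 0.0472 to 0.575 in hippocampus. The order among 2 kb windows in those ranges is therefore coarse.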
